A study of Mus musculus with 18 samples.

Results

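The genes described here are 10 members of the Kruppel-like factor family, namely Klf2, Klf3, Klf4, Klf5, Klf6, Klf9, Klf10, Klf11, Klf13 and Klf15, chosen by name as the family members to follow through experimental myocardial infarction in the mouse. All 10 were found among the 30583 genes of the count table. All 10 were among the 16311 genes that passed the filter on low counts and were tested, Klf5 only through libraries taken after ligation. RNA-seq had been made from the left ventricle of male C57BL/6JR mice aged 12 weeks. The mice were anaesthetised with pentobarbital, and in 5 groups the left anterior descending coronary artery was tied and the infarcted left ventricular myocardium was taken after 10 min, 1 h or 6 h, or after 24 h or 72 h. In the sham group, labelled 0 h, a suture was passed in the same operation and not tied, and every contrast with sham below uses these same 3 libraries. Each group held 3 libraries, which the labels number as replicates without saying more of their source than the mouse, so p-values measure the spread between these libraries. No sham group at a later time was analysed here, so time since the operation and ligation cannot be told apart, and the time of day at which hearts were taken is not given in the sources used here.

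Kruppel-like factors are transcription factors with zinc fingers at the carboxyl end that bind GC-rich and CACCC sequences, and members differ mainly in the part of the protein that activates or represses. Klf2 and Klf4 are known in endothelium as factors induced by laminar flow through the kinase Erk5 and MEF2 proteins. Klf6, Klf10 and Klf11 are known as early-response genes, the latter pair first described as induced by TGF-beta. Klf9, Klf13 and Klf15 are known as genes induced by glucocorticoids, and Klf15 is a regulator of amino acid and lipid use in heart muscle.

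The 18 libraries held 18199172 to 25062351 counts. Levels are given in CPM, read counts relative to a common library total that is set by the trimmed mean of M values (TMM), in the order of replicates 1 to 3, and a gene is said to have risen or fallen only where the edgeR quasi-likelihood test, adjusted by the Benjamini-Hochberg method over all genes tested, gave a p below 0.05. The labels name cardiomyocytes as the cell type, but markers of other cardiac cells were present in every group. In sham the summed level was 45160.7 to 49916.7 CPM for 6 cardiomyocyte markers, 1214.7 to 1346.3 CPM for 6 endothelial markers and 680.9 to 717.3 CPM for 6 fibroblast markers, with none of these markers at 0. At 72 h the cardiomyocyte sum was 10785.6 to 14405.9 CPM, the fibroblast sum 4236.7 to 5319.6 CPM, and the sum of 6 macrophage and monocyte markers 3084.6 to 4031.6 CPM against 247.2 to 278.7 CPM in sham. In such whole tissue, fewer cells of a type and less RNA per cell cannot be told apart. Replicate 1 at 6 h and replicate 3 at 24 h stood apart, with 757.1 and 663.4 CPM of 6 neutrophil markers where their groups' other libraries held 36.1 to 268.6 CPM. Replicate 1 at 6 h also held 172.2 CPM of 4 atrial markers, against at most 3.41 CPM in any other library.

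Across the time course, 9 of the 10 genes differed between the 6 groups by the edgeR F test, and Klf3 did not. Of all genes tested, 78.4% passed the same test. The genes followed separate courses. Klf2 and Klf4 peaked at 1 h and were below sham at 72 h, Klf6 peaked at 6 h, Klf10 was higher from 6 h on, Klf5 was higher from 6 h at very low counts, and Klf9 and Klf15 fell late, reaching their lowest levels at 72 h.

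**Figure D1:**
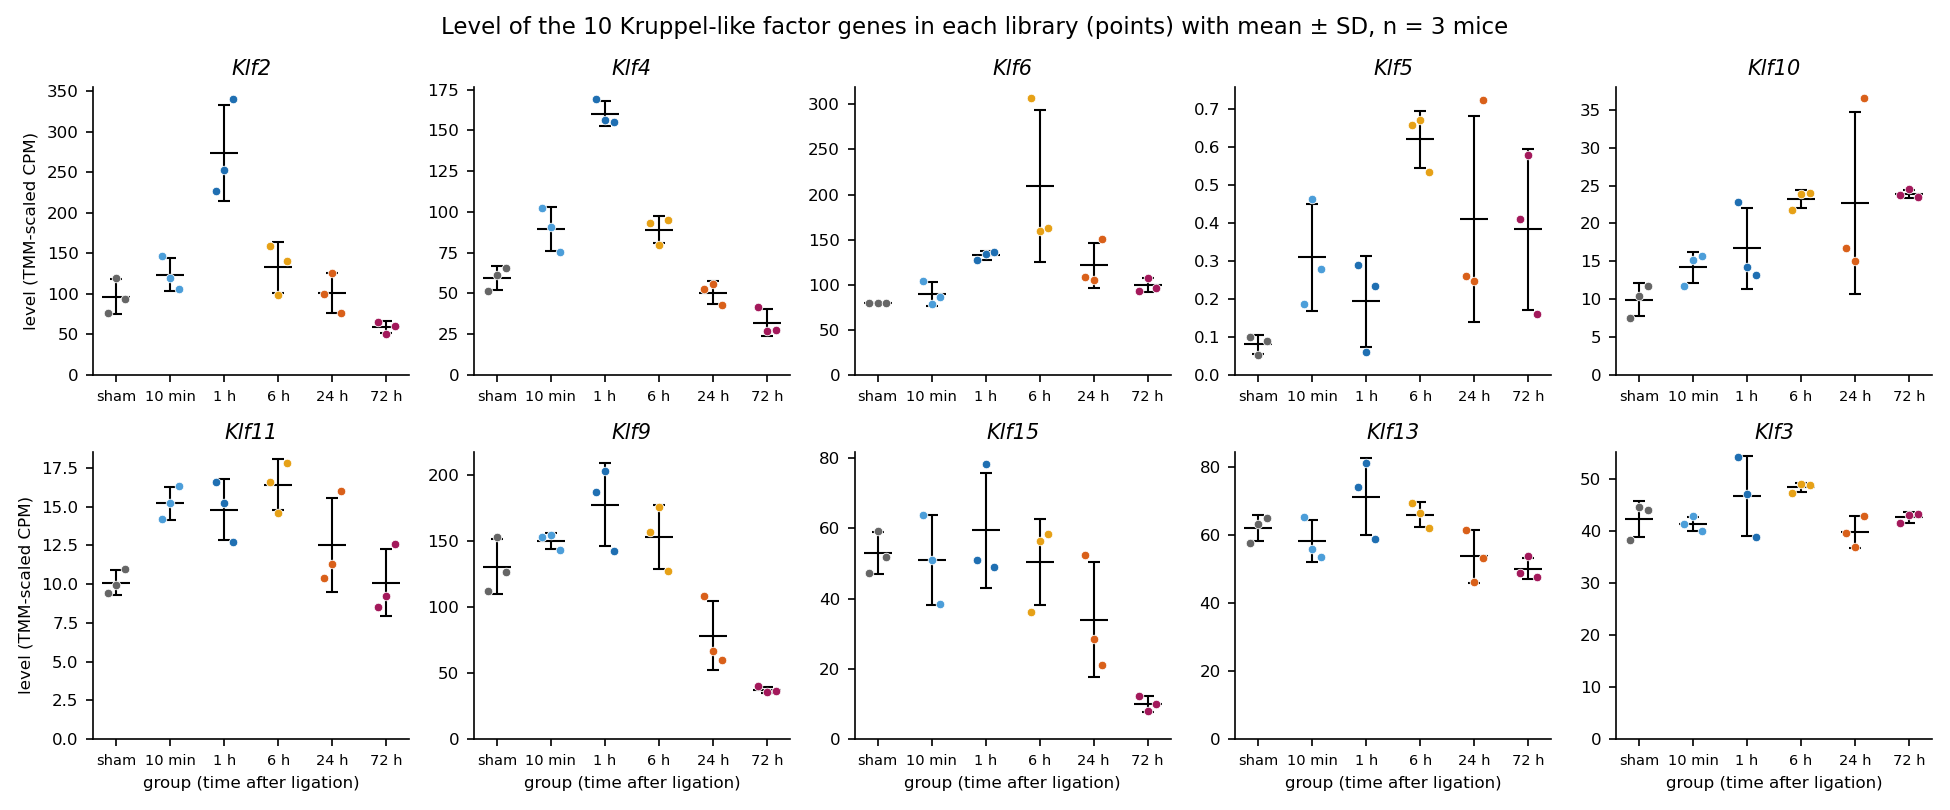
TMM-scaled CPM of each of the 10 genes (vertical axes, CPM) in the 6 groups (horizontal axes, sham to 72 h); points are single libraries, with the mean ± SD of 3. Klf2 and Klf4 peak at 1 h, at means of 273.9 and 160.3 CPM, and Klf9 and Klf15 reach their lowest means, 37.2 and 10.1 CPM, at 72 h.

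By contrast with sham, no member passed the test at 10 min. At that time 0.0307% of all genes rose and 0.0429% fell, and 3 members and 1144 genes had an unadjusted p below 0.05; DESeq2 and limma also called 0 members. At 1 h Klf2 and Klf4 rose and no member fell, where 0.288% of all genes rose and 0.00613% fell. At 6 h 5 members rose (Klf4, Klf5, Klf6, Klf10 and Klf11) and 0 fell, beside 16.3% of all genes that rose and 12.2% that fell. At 24 h Klf5, Klf6 and Klf10 rose and Klf9 fell, where 23.7% of all genes rose and 20.2% fell. At 72 h Klf5 and Klf10 rose and 5 members fell (Klf2, Klf4, Klf9, Klf13 and Klf15), against 34.2% and 32.2% of all genes. In these counts the calls of Klf5 are not free of selection, as it passed the low-count filter only through libraries after ligation.

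The median log2 fold change of the 10 members against sham was 0.28 at 10 min, 0.64 at 1 h, 0.52 at 6 h, -0.01 at 24 h and -0.15 at 72 h, where the medians of all genes tested lay between -0.01 and 0.03. Scaling by library size alone, without TMM, shifted these medians of all genes: at 6 h the value became -0.12, at 24 h 0.20 and at 72 h 0.61. Higher genes as a share of those called then went from 57.2% to 40.6% at 6 h, from 54.0% to 75.5% at 24 h and from 51.4% to 79.9% at 72 h. Under that scaling 6 members rose at 72 h (Klf3, Klf5, Klf6, Klf10, Klf11 and Klf13) and 2 fell (Klf9 and Klf15). Of the 16311 genes tested, 9472 rose and 2382 fell there. The late falls of Klf2, Klf4 and Klf13 thus depend on the scaling, while those of Klf9 and Klf15 were called under both, though smaller without TMM.

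Between successive times, Klf2 and Klf4 rose from 10 min to 1 h, beside 0.251% of all genes that rose and 0.0552% that fell. From 1 h to 6 h Klf6 rose and Klf2 and Klf4 fell, where 14.5% of all genes rose and 10.0% fell. From 6 h to 24 h 4 members fell (Klf3, Klf4, Klf6 and Klf9) and 0 rose, against 13.7% of all genes that fell and 14.2% that rose. From 24 h to 72 h 4 members fell (Klf2, Klf4, Klf9 and Klf15) and 0 rose, where 26.1% of all genes fell and 24.4% rose. In these last 2 steps library size scaling gave a median over all genes of 0.33 and 0.36, in place of 0.02 and -0.03. Higher genes then made up 88.0% and 81.5% of those called, in place of 50.9% and 48.4%, and 45.7% in place of 59.2% for 6 h against 1 h. With that scaling Klf4, Klf6 and Klf9 fell from 6 h to 24 h, where 6052 of all genes rose and 828 fell. From 24 h to 72 h Klf9 and Klf15 fell while Klf3 and Klf13 rose, beside 7285 genes that rose and 1651 that fell.

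**Figure D2:**
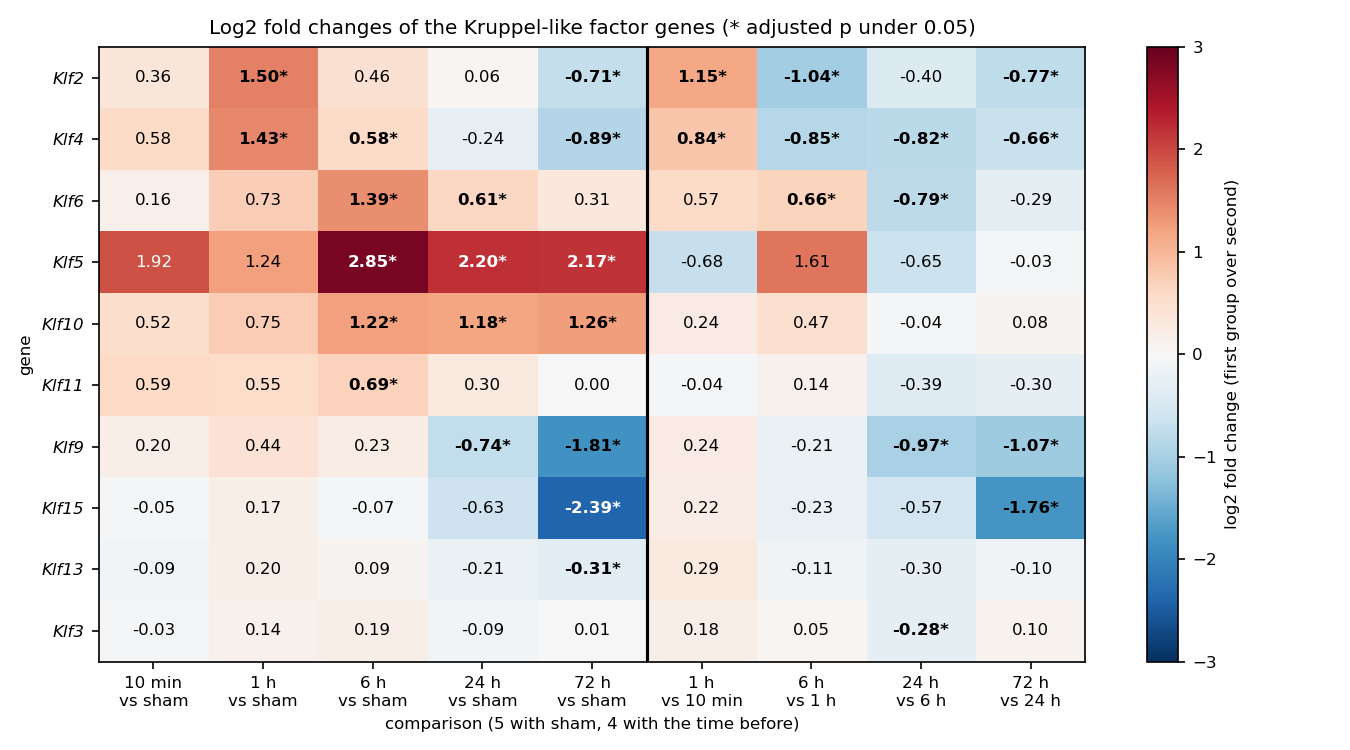
Log2 fold change (colour, red higher and blue lower) of each of the 10 genes (rows) in the 5 contrasts with sham and the 4 contrasts between successive times (columns), from the edgeR fit; an asterisk marks an adjusted p below 0.05. Klf2 reaches 1.5 at 1 h and Klf15 -2.39 at 72 h.

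Klf2, the flow-induced endothelial factor (ENSMUSG00000055148, chr8:72319033-72321656 of mm10, plus strand), carried 1486 to 5839 counts per library. It stood at 76.7, 119.4 and 93.7 CPM in sham, at 146.4, 119.3 and 105.8 CPM at 10 min and at 227.7, 253.5 and 340.4 CPM at 1 h. It then stood at 159.7, 98.6 and 140.6 CPM at 6 h, at 99.7, 125.7 and 76.6 CPM at 24 h and at 65.1, 51.2 and 60.6 CPM at 72 h. Every 1 h library lay above every library of the other groups, and every 72 h library lay below every sham library. Klf2 rose 2.83-fold at 1 h (log2 1.5, SE 0.22, edgeR adjusted p = 0.00325), from 96.6 ± 21.5 CPM (SD, n = 3) in sham to 273.9 ± 59.1 CPM. It fell by 1.04 on the log2 scale from 1 h to 6 h (SE 0.22, edgeR adjusted p = 0.00314), and at 6 h and 24 h its log2 fold changes against sham were 0.46 (adjusted p = 0.129) and 0.06 (adjusted p = 0.845). At 72 h, at 59.0 ± 7.11 CPM, it had fallen by 0.71 against sham (SE 0.22, edgeR adjusted p = 0.00952) and by 0.77 against 24 h (adjusted p = 0.00802).

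In the order of its means, 1 h, 6 h, 10 min, 24 h, sham and 72 h, neighbouring groups of Klf2 were separate only between 1 h and 6 h and between sham and 72 h. A fit of the 6 libraries of sham and 1 h alone did not call the rise at 1 h (log2 1.51, adjusted p = 0.11). The rise from 10 min to 1 h (log2 1.15, adjusted p = 0.0337) lost its call in 10 of the 18 fits without 1 library, with adjusted p between 0.051 (without 10 min replicate 1) and 0.238 (without 10 min replicate 3). Those 10 left out sham replicate 3, each 10 min library, 1 h replicates 2 and 3, 6 h replicate 3, 24 h replicate 1, or 72 h replicates 1 and 3, in turn, and the replicate block also ended the call. The fall at 72 h was not called by library size scaling (log2 -0.12) or without sham replicate 2 (log2 -0.54, adjusted p = 0.054), and Klf2 was called as higher at 6 h without 6 h replicate 2 (log2 0.64, adjusted p = 0.0426).

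The sequence before the Klf2 start is shown because it holds a MEF2 site, the kind of element named above for the flow response. It spans 250 bases before to 10 bases after the RefSeq start at chr8:72318812-72319071 of GRCm38.p6, plus strand, 5′ to 3′, with the MEF2 site in capitals at position -118 from the start.
Klf2: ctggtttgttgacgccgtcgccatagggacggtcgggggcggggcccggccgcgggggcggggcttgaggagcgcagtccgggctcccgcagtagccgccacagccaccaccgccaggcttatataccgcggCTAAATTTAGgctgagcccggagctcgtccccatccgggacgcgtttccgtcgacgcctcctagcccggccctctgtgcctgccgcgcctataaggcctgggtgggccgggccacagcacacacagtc
Such a site was present in 3.19% of the 32851 promoters of the RefSeq table (250 bases before to 50 after each start) and in 1 of the 8 member promoters found there, those of Klf2, Klf3, Klf4, Klf6, Klf9, Klf11, Klf13 and Klf15. The match is a description of letters, searched on both strands, and the motif was added after the sequences had been seen.

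Klf4, which like Klf2 restrains inflammatory genes in endothelium and is also expressed in monocytes and smooth muscle (ENSMUSG00000003032, chr4:55527143-55532466, minus strand), followed the same early course. It stood at 51.5, 61.4 and 65.9 CPM in sham, at 102.3, 90.7 and 75.3 CPM at 10 min and at 169.1, 156.7 and 155.3 CPM at 1 h. It stood at 93.0, 79.8 and 94.8 CPM at 6 h, at 53.0, 55.8 and 42.7 CPM at 24 h and at 41.5, 27.1 and 27.7 CPM at 72 h. All libraries of 10 min, 1 h and 6 h lay above all sham libraries, and all 72 h libraries lay below them. At 10 min, at 89.4 ± 13.6 CPM, the log2 fold change was 0.58 (SE 0.15) with an unadjusted p of 0.00134, and it did not pass the test over all genes (edgeR adjusted p = 0.309); with only the 6 libraries compared, it did (adjusted p = 0.0381).

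Klf4 rose 2.69-fold at 1 h (log2 1.43, SE 0.16, edgeR adjusted p = 0.000113), from 59.6 ± 7.35 to 160.3 ± 7.60 CPM (SD, n = 3). It was still 1.5-fold higher than sham at 6 h (log2 0.58, SE 0.15, edgeR adjusted p = 0.00923), a call lost without sham replicate 1 (log2 0.49, adjusted p = 0.0548). Klf4 fell at each later step, by 0.85 from 1 h to 6 h (adjusted p = 0.000814), by 0.82 from 6 h to 24 h (adjusted p = 0.00102) and by 0.66 from 24 h to 72 h (adjusted p = 0.0018, edgeR). At 72 h it had fallen by 0.89 against sham (SE 0.16, edgeR adjusted p = 6.13e-05), to 32.1 ± 8.15 CPM. Under library size scaling the values at 72 h were -0.31 against sham (adjusted p = 0.0625) and -0.27 against 24 h (adjusted p = 0.128), neither called. The rise from 10 min to 1 h (log2 0.84, adjusted p = 0.0173) lost its call without 10 min replicate 2 or 3 (adjusted p = 0.0976 and 0.159) or without 1 h replicate 1 or 2 (adjusted p = 0.0953 and 0.0655). Neighbouring groups of Klf4 in the order of means were separate between 1 h and 10 min, between 6 h and sham and between 24 h and 72 h.

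The Klf4 start is shown for its E-box, the CACGTG element bound by the clock factors and by Myc and Usf proteins. The stretch is chr4:55532466-55532725 of GRCm38.p6, minus strand, with the E-box in capitals at position -182 from the start.
Klf4: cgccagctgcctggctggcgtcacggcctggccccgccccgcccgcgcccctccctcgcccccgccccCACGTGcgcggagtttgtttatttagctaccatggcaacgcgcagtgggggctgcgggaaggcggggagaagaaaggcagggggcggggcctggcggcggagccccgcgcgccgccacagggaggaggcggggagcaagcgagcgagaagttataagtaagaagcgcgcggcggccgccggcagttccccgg
E-boxes CACGTG were present in 7.15% of all RefSeq promoters and in 4 of the 8 member promoters, those of Klf4, Klf6, Klf11 and Klf15. None of the motif shares given here was matched for GC content, which was 60.4% to 73.8% in the stretches printed, and enrichment was not tested.

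Summed endothelial markers lay between 1142.5 and 1278.4 CPM at 1 h, beside 1214.7 to 1346.3 CPM in sham. Per 100 CPM of these markers, Klf2 stood at 5.98, 9.83 and 6.96 in sham and at 19.8, 22.2 and 26.6 at 1 h, and Klf4 at 4.01, 5.05 and 4.89 in sham and at 14.7, 13.7 and 12.1 at 1 h. Both ratios were thus higher in every 1 h library than in any sham library, without any scaling between libraries. At 72 h the endothelial sum was 746.2 to 966.6 CPM and 5 of the 6 markers had fallen (median log2 -0.60), but under library size scaling 1 rose and 1 fell (median -0.02). The ratios at 72 h, 7.98, 5.29 and 8.13 for Klf2 and 5.09, 2.80 and 3.71 for Klf4, overlapped those in sham. The cells that carried either RNA were not measured, and the part of the endothelial markers in the late values was not tested beyond these ratios.

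Klf6, an early-response factor of wounded endothelium and of macrophages (ENSMUSG00000000078, chr13:5861482-5870394, plus strand), peaked later. It stood at 79.5, 80.0 and 80.0 CPM in sham, at 104.0, 78.7 and 85.9 CPM at 10 min and at 127.2, 134.3 and 136.7 CPM at 1 h. It stood at 307.1, 159.2 and 163.3 CPM at 6 h, at 108.3, 105.8 and 150.4 CPM at 24 h and at 93.2, 107.9 and 96.6 CPM at 72 h. All libraries from 1 h on lay above sham, and replicate 1 at 6 h and replicate 3 at 24 h, the libraries with the most neutrophil marker RNA of their groups, were the highest of their groups. Klf6 rose 2.63-fold at 6 h (log2 1.39, SE 0.20, edgeR adjusted p = 0.000131), from 79.8 ± 0.297 to 209.9 ± 84.2 CPM (SD, n = 3). Its values at 1 h (log2 0.73, adjusted p = 0.291) and 72 h (log2 0.31, adjusted p = 0.175) did not pass the test. Without 6 h replicate 1 both did, at adjusted p of 0.00514 and 0.0334, and the value at 72 h was 0.90 with library size scaling (adjusted p = 0.00025).

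The higher Klf6 level at 24 h (log2 0.61, SE 0.20, edgeR adjusted p = 0.0218) lost its call without any 1 sham library (adjusted p = 0.0567, 0.0551 and 0.0546) and without 24 h replicate 3 (log2 0.42, adjusted p = 0.131). The step from 1 h to 6 h (log2 0.66, adjusted p = 0.0237) lost its call without any 1 of the 1 h libraries (adjusted p = 0.074, 0.0641 and 0.0565), and without 6 h replicate 1 it was 0.28 (adjusted p = 0.179). The fall from 6 h to 24 h, by 0.79 (adjusted p = 0.00774), kept its call without any 1 library, though without 6 h replicate 1 it was -0.41. It lost its call in limma on log2(FPKM + 1), at -0.42 (adjusted p = 0.069), and in edgeR on only the 6 libraries compared (adjusted p = 0.117). In the order 6 h, 1 h, 24 h, 72 h, 10 min and sham, the groups at 6 h and 1 h were separate and other neighbours overlapped. The part of the neutrophil markers in the level of Klf6 was not tested.

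Klf10, known as TGF-beta inducible early gene (ENSMUSG00000037465, chr15:38291463-38300706, minus strand), rose to a plateau. It stood at 7.58, 10.4 and 11.8 CPM in sham, at 11.8, 15.2 and 15.7 CPM at 10 min and at 22.8, 14.2 and 13.2 CPM at 1 h. It stood at 21.8, 23.9 and 24.0 CPM at 6 h, at 16.7, 15.0 and 36.5 CPM at 24 h and at 23.7, 24.5 and 23.5 CPM at 72 h. All libraries after ligation lay above sham, 10 min replicate 1 only just, and the 72 h libraries differed from each other by little, while replicate 3 at 24 h was the highest of all. Klf10 rose 2.33-fold at 6 h (log2 1.22, SE 0.29, edgeR adjusted p = 0.00609), 2.27-fold at 24 h (log2 1.18, adjusted p = 0.00429) and 2.4-fold at 72 h (log2 1.26, adjusted p = 0.00121). These 3 calls were kept under every alternative tried, but the value at 24 h rested in part on replicate 3, without which it was 0.67 (adjusted p = 0.015). Among neighbours in the order of means, only 10 min and sham were separate. That separation was narrower than the digits printed, as 10 min replicate 1 and sham replicate 3 both stood at 11.8 CPM. They held 190 of 18199172 and 266 of 23497214 counts, so their order depends on the scaling. No step between successive times passed the test; without 24 h replicate 3, Klf10 fell from 6 h to 24 h by 0.55 (adjusted p = 0.0478) and rose again by 0.59 from 24 h to 72 h (adjusted p = 0.0167).

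Klf11, a close relative of Klf10 that recruits the Sin3 corepressor (ENSMUSG00000020653, chr12:24651274-24662789, plus strand), passed the test at 6 h. It stood at 9.40, 9.96 and 11 CPM in sham, at 14.2, 15.2 and 16.3 CPM at 10 min, at 16.6, 15.2 and 12.7 CPM at 1 h and at 16.6, 14.6 and 17.8 CPM at 6 h. At 24 h it stood at 10.4, 11.3 and 16 CPM and at 72 h at 8.55, 9.26 and 12.6 CPM. Every library of 10 min, 1 h and 6 h lay above every sham library, those of 24 h and 72 h overlapped sham, and no neighbours in the order of means were separate. Klf11 rose 1.62-fold at 6 h (log2 0.69, SE 0.17, edgeR adjusted p = 0.00503), whereas its values at 10 min (log2 0.59) and 1 h (log2 0.55) had adjusted p of 0.337 and 0.394 (edgeR). Fitting only the 6 libraries compared called both, at 0.00815 and 0.0265. At 72 h its value was 0.00, and 0.59 with library size scaling (adjusted p = 0.0072).

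Klf5, a factor of growing smooth muscle, fibroblasts and injured vessel walls (ENSMUSG00000005148, chr14:99298691-99315036, plus strand), was covered by few reads. It had 1 to 19 counts per library and 5 counts in all in sham, against 19 at 10 min, 11 at 1 h, 35 at 6 h, 27 at 24 h and 37 at 72 h. The ratios to sham from these sums were 7.63 at 6 h (95% interval 2.98 to 25), 4.69 at 24 h (1.78 to 15.6) and 4.74 at 72 h (1.86 to 15.5). At 10 min and 1 h they were 4.05 (1.46 to 13.9) and 2.47 (0.792 to 9.08). The intervals are exact and cover counting error only. By library, Klf5 stood at 0.101, 0.0519 and 0.0888 CPM in sham, at 0.187, 0.462 and 0.279 CPM at 10 min, at 0.290, 0.0592 and 0.233 CPM at 1 h, at 0.656, 0.670 and 0.533 CPM at 6 h, at 0.259, 0.248 and 0.722 CPM at 24 h and at 0.410, 0.578 and 0.159 CPM at 72 h. All libraries of 6 h, 24 h and 72 h lay above sham, as did those of 10 min, and no neighbours in the order of means were separate. With 2, 1 and 2 counts in the sham libraries, Klf5 passed the low-count filter only through libraries after ligation, where it was higher. It was not tested against sham with only the 6 libraries compared. The edgeR adjusted p was 0.00453 at 6 h, 0.0177 at 24 h and 0.00987 at 72 h, values that are not free of that selection. The call at 24 h was lost without sham replicate 2 (adjusted p = 0.0616) or 24 h replicate 3 (adjusted p = 0.119), and that at 72 h without 72 h replicate 2 (adjusted p = 0.0531).

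Klf9, a glucocorticoid-induced repressor that also follows the circadian clock in many tissues (ENSMUSG00000033863, chr19:23141226-23168134, plus strand), was abundant in sham and fell late. It stood at 112.5, 153.0 and 127.0 CPM in sham, at 153.5, 154.4 and 143.4 CPM at 10 min, at 187.2, 203.2 and 142.6 CPM at 1 h and at 156.6, 175.6 and 127.1 CPM at 6 h. At 24 h it stood at 108.5, 66.9 and 59.8 CPM and at 72 h at 40.2, 35.4 and 36.1 CPM. The early libraries overlapped sham, every 24 h library lay below sham, and every 72 h library lay below those of 24 h; no other neighbours in the order of means were separate. Klf9 fell by 0.74 on the log2 scale at 24 h (SE 0.19, edgeR adjusted p = 0.00484) and by 1.81 at 72 h (SE 0.19, adjusted p = 3.52e-07), a level 3.51-fold lower, from 130.8 ± 20.5 to 37.2 ± 2.54 CPM (SD, n = 3). The falls from 6 h to 24 h, by 0.97 (adjusted p = 0.00154), and from 24 h to 72 h, by 1.07 (adjusted p = 0.00018), passed too, and all 4 calls of Klf9 were kept under every alternative tried. Their size depended on the scaling. Against sham, Klf9 was at -0.56 at 24 h and -1.23 at 72 h with library size scaling, and at -1.17 at 72 h in limma on log2(FPKM + 1).

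Klf15, which drives branched-chain amino acid breakdown and lipid use in heart muscle and restrains hypertrophy (ENSMUSG00000030087, chr6:90462576-90475238, plus strand), fell further. It stood at 47.4, 59.3 and 51.9 CPM in sham, at 63.9, 51.1 and 38.4 CPM at 10 min, at 51.0, 78.3 and 48.9 CPM at 1 h and at 36.3, 56.4 and 58.5 CPM at 6 h. At 24 h it stood at 52.5, 28.5 and 21 CPM, and at 72 h at 12.4, 7.86 and 9.99 CPM. Replicate 1 at 24 h lay within the sham range and the others of that group below it, and all 72 h libraries lay below all others; 24 h and 72 h were the only neighbours in the order of means that were separate. Klf15 fell by 2.39 at 72 h (SE 0.33, edgeR adjusted p = 1.44e-05), a level 5.24-fold lower, from 52.9 ± 6.02 to 10.1 ± 2.29 CPM (SD, n = 3), and by 1.76 from 24 h to 72 h (SE 0.33, adjusted p = 0.000404). The size of these falls depended on the scaling. Against sham, Klf15 at 72 h was at -1.80 with library size scaling and at -1.63 in limma on log2(FPKM + 1), both called. At 24 h its value of -0.63 (SE 0.31) did not pass (edgeR adjusted p = 0.112), and without 24 h replicate 1 it was -1.08 (adjusted p = 0.00618).

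The starts of Klf15 and Klf9 are shown because their motifs differ: Klf15 holds 3 E-boxes and Klf9 none. The Klf15 stretch is chr6:90462326-90462585, plus strand, with the E-boxes in capitals at positions -228, -172 and -3 from the start. The Klf9 stretch is chr19:23140976-23141235, plus strand, with TGAATCA in capitals at position -89 from the start (both GRCm38.p6). It matches the AP-1 pattern searched here, TGANTCA, in which N allows any base and is A in this match.
Klf15: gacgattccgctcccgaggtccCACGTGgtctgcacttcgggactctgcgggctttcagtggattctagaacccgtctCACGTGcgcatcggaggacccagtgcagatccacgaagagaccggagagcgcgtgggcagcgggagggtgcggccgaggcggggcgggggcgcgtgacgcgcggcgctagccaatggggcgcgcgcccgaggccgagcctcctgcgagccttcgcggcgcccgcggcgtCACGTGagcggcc
Klf9: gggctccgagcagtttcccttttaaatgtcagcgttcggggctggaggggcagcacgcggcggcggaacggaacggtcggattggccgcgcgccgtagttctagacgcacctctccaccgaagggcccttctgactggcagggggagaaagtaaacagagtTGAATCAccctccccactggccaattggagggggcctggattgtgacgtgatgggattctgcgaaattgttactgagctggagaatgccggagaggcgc
The AP-1 motif TGANTCA was present in 7.81% of all RefSeq promoters and in that of Klf9 alone among the 8 members; a CACCC match begins within it, so those 2 matches overlap. The GC box GGGCGG, present in 35.7% of promoters, was found in 7 of the 8 and not in Klf9, and CACCC, the family's own kind of binding sequence, in 57.5% of promoters and in 5 of the 8 (Klf2, Klf3, Klf9, Klf13 and Klf15). The CRE TGACGTCA (1.79% of promoters) and the CArG box (1.63%) were found in none of the 8. All motifs were searched on both strands, and an absent match says only that the letters are not in this window.

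**Figure D3:**
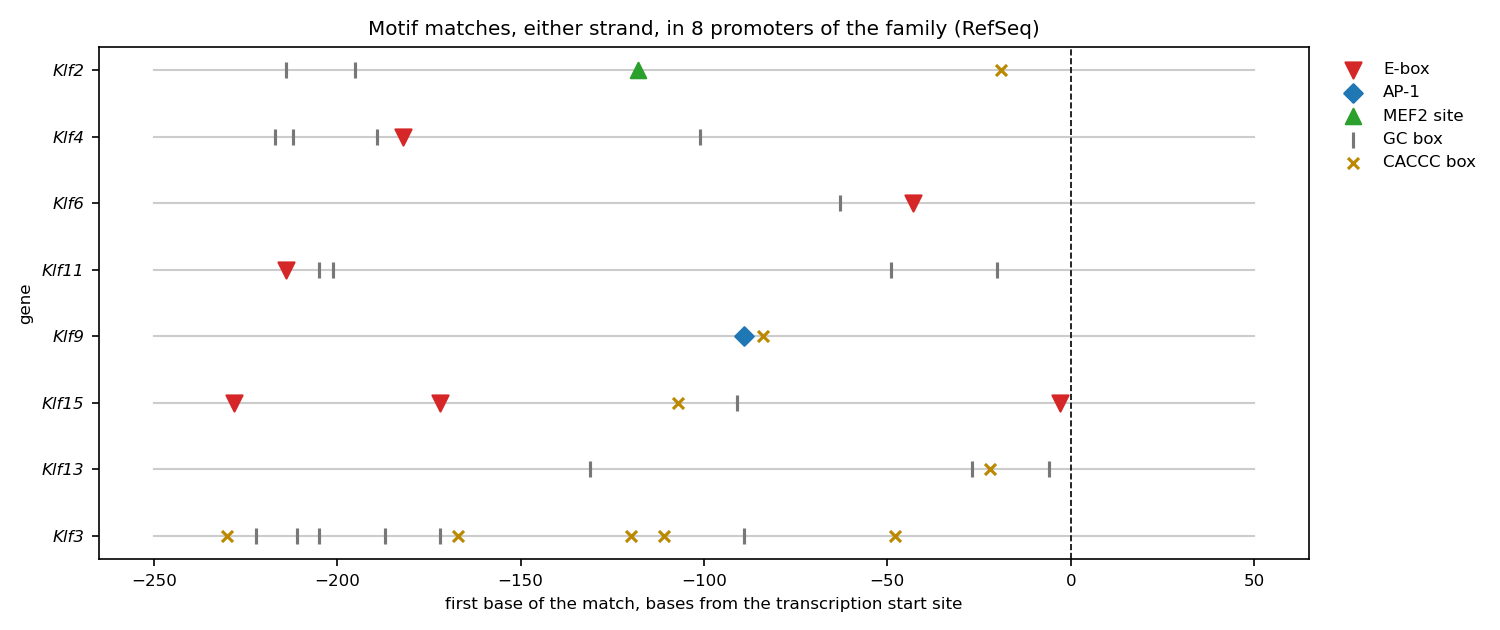
Position of motif matches (symbols by motif) relative to the RefSeq start site (horizontal axis, bases) in the 8 member promoters in the table (rows), from 250 bases before to 50 after the start. Klf15 carries 3 E-boxes, Klf2 the one MEF2 site and Klf9 the one match to the AP-1 pattern TGANTCA.

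The cardiomyocyte markers fell over the same period as Klf9 and Klf15: at 24 h 4 of 6 had fallen (median log2 -0.69) and at 72 h 6 of 6 (median -1.83). Per 1000 CPM of these markers, a ratio that needs no scaling between libraries, Klf9 stood at 2.25, 3.20 and 2.81 in sham, at 3.64, 2.43 and 3.03 at 24 h and at 2.79, 3.29 and 3.20 at 72 h. The late ratios of Klf9 overlapped sham. Klf15 stood at 0.95, 1.24 and 1.15 per 1000 CPM in sham, at 1.76, 1.04 and 1.06 at 24 h and at 0.863, 0.728 and 0.884 at 72 h. All 3 ratios of Klf15 at 72 h lay below sham, at a mean of 0.825 ± 0.0843 against 1.11 ± 0.148 (SD, n = 3).

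**Figure D4:**
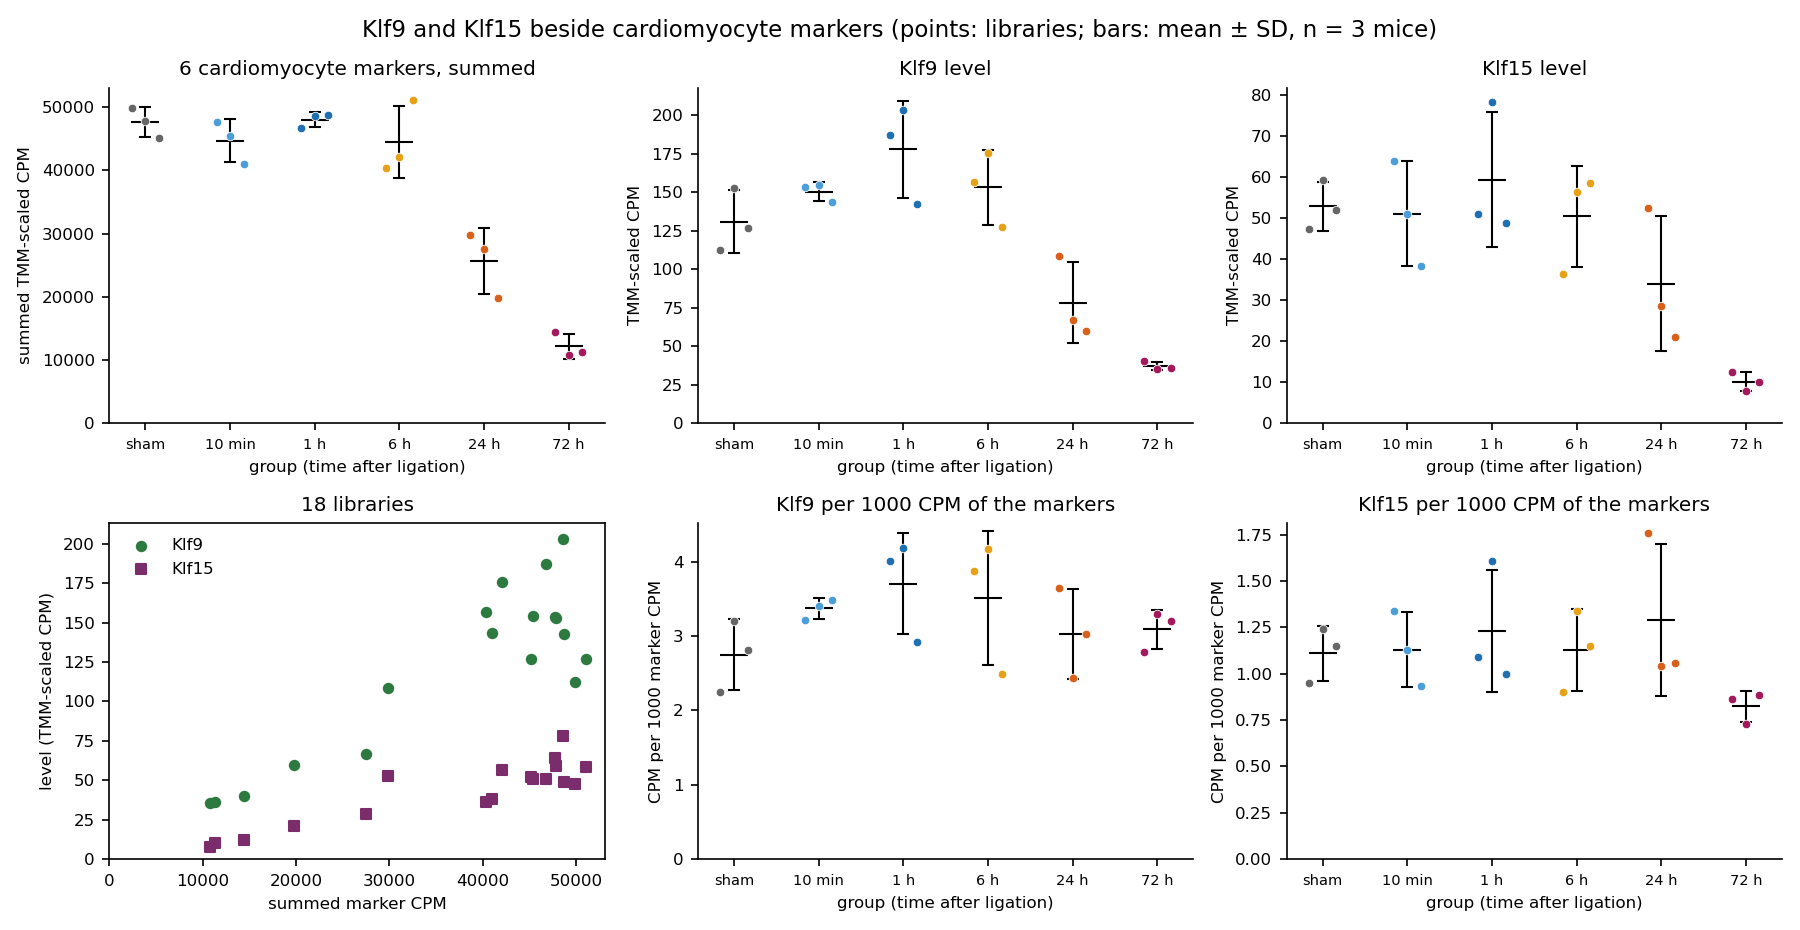
Klf9 and Klf15 beside 6 summed cardiomyocyte markers (vertical axes, CPM, and the ratio of each gene per 1000 CPM of the markers) in the 6 groups (horizontal axis); points are single libraries and bars the mean ± SD of 3. The Klf9 ratio at 72 h, 3.09, lies within the sham range, and the Klf15 ratios at 72 h, 0.728 to 0.884, lie below it.

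Klf13, a widely expressed relative of Klf9 (ENSMUSG00000052040, chr7:63886351-63938915, minus strand), moved little. It stood at 57.7, 63.2 and 65.1 CPM in sham and at 48.9, 53.7 and 47.8 CPM at 72 h, with group means of 53.7 to 71.3 CPM between those times. All 72 h libraries lay below sham, and neighbouring groups in the order of means overlapped. The fall at 72 h, by 0.31 (SE 0.12, edgeR adjusted p = 0.0308), turned to 0.28 with library size scaling (adjusted p = 0.0318). It lost its call without sham replicate 2 or 3 (adjusted p = 0.069 and 0.0927) or 72 h replicate 1 or 3 (adjusted p = 0.0783 and 0.097), and by DESeq2 (log2 -0.28).

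Klf3, which represses by binding Ctbp proteins (ENSMUSG00000029178, chr5:64803388-64832901, plus strand), had group means between 39.8 ± 3.06 CPM at 24 h and 48.3 ± 0.929 CPM at 6 h (SD, n = 3). The 3 libraries at 6 h, at 47.3, 48.9 and 48.8 CPM, lay above those at 24 h, at 39.6, 36.8 and 42.9 CPM, and this fall, by 0.28 (SE 0.10), was its only call (edgeR adjusted p = 0.0466). It was lost in 14 of the 18 fits without 1 library (adjusted p from 0.0561 to 0.166; it held without sham replicate 1, 1 h replicate 1 or 3, or 24 h replicate 3) and was 0.02 with library size scaling. The F test, over the 6 groups, gave an edgeR adjusted p of 0.11 for Klf3. At 72 h the log2 fold change against sham was 0.01, and 0.60 with library size scaling (adjusted p = 9.92e-05).

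Levels of different genes were compared per length, as the deposited FPKM, fragments per kilobase of gene relative to the library total. In sham the 10 genes summed to 154.0 ± 20.6 FPKM (SD, n = 3), of which Klf2 held 31.1%, Klf9 24.0%, Klf4 11.8%, Klf15 11.4% and Klf6 11%. At 1 h the sum was 300.0 ± 14.4 FPKM and Klf2 alone, at 135.0 FPKM, held 44.8%. At 72 h the sum was 140.0 ± 6.09 FPKM, with Klf2 at 31.6%, Klf6 at 22.5%, Klf9 at 11.3%, Klf4 at 10.4%, Klf10 at 7.8% and Klf15 at 3.56%. Klf2 thus ranked first and Klf5 last in all 6 groups, Klf6 moved from the fifth place in sham to the second at 72 h, and Klf15 from the fourth to the eighth. These shares are within a library and do not depend on its scaling, but FPKM depends on the gene length used. The sums do depend on the scaling, as FPKM is relative to the library total without TMM. Klf6, for example, went from 16.8 FPKM in sham to 31.5 FPKM at 72 h, but from 79.8 to 99.3 CPM. The deposited length of Klf5, Klf9 and Klf10 was shorter than the summed exon length in GENCODE M21 (1721 against 5201, 3263 against 4815 and 3045 against 4179 bases), and those of the other 7 were equal to it.

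**Figure D5:**
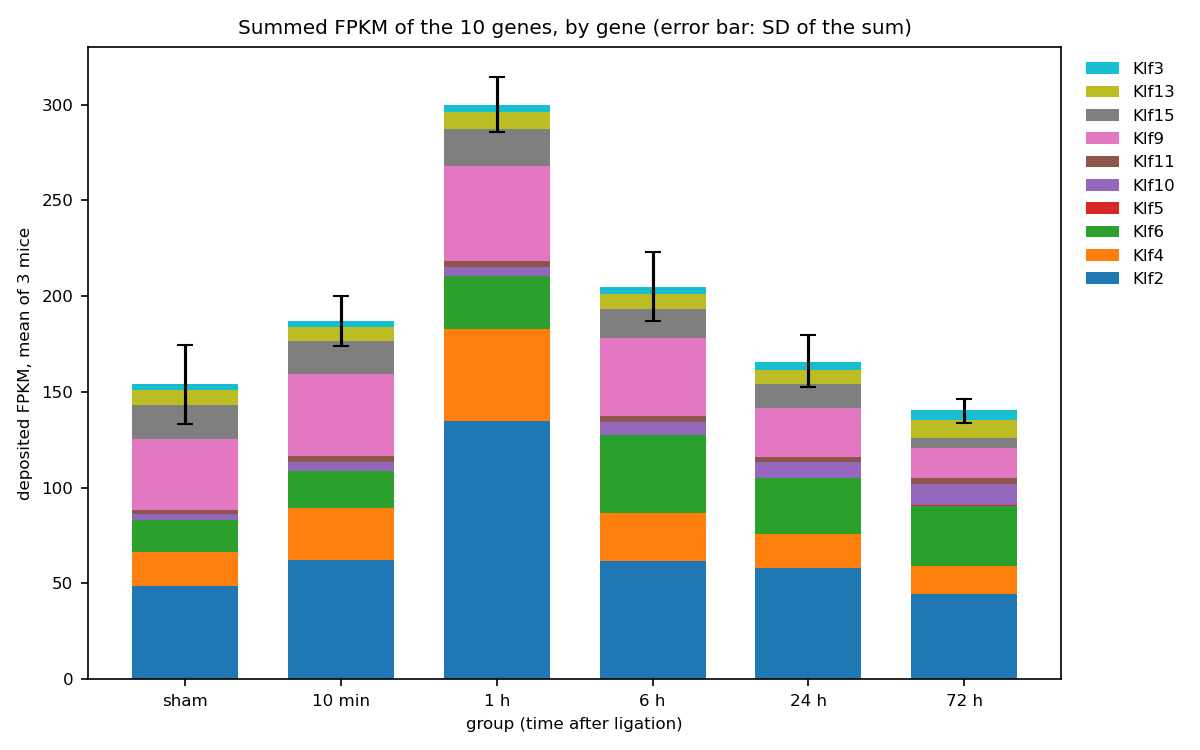
Mean deposited FPKM of the 10 genes, stacked (vertical axis, FPKM), in the 6 groups (horizontal axis, 3 libraries each). The total is highest at 1 h, 300.0 FPKM, of which Klf2 is 135.0, and the share of Klf9 and Klf15 is smallest at 72 h.

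Genes known to act with the members were counted from lists, of which the 2 genes with the smallest F test p are named with their levels. Other genes named beside these counts were named after their values were seen. Of the 16311 genes tested, 0.0307% rose and 0.0429% fell at 10 min, and 0.288% and 0.00613% at 1 h. At 6 h 16.3% rose and 12.2% fell, at 24 h 23.7% and 20.2%, and at 72 h 34.2% and 32.2%. With library size scaling 5558 rose and 1805 fell at 24 h, and 9472 and 2382 at 72 h. The list counts below stand beside these shares, and no list was tested as a set. Of 10 genes known as controlled by Klf15, 0 passed the edgeR test at 10 min, 1 h and 6 h; at an unadjusted p below 0.05 the counts were 0, 0 and 1, and by DESeq2 0, 0 and 1. At 24 h 9 fell (median log2 -0.71) and at 72 h 10 fell (median -1.91), and 0 rose, where 20.2% and 32.2% of all genes fell. Bckdha, a subunit of the branched-chain keto acid dehydrogenase, fell by 2.04 at 72 h, from 93.1 to 22.6 CPM (edgeR adjusted p = 5.06e-09), and Acadl, the long-chain acyl-CoA dehydrogenase, by 1.73, from 989.5 to 298.6 CPM (edgeR adjusted p = 6.45e-09). The potassium channel subunit gene Kcnip2 fell by 2.91 and the glucose transporter gene Slc2a4 by 2.24 at 72 h. With library size scaling 8 fell at 24 h and 10 at 72 h. These are genes of heart muscle, and the cardiomyocyte markers fell at the same times; their part in the counts was not tested.

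Of 10 genes of the glucocorticoid receptor list that go with Klf9, Klf13 and Klf15, Sgk1 and Errfi1 rose at 1 h. At 6 h 6 rose (Fkbp5, Per1, Zbtb16, Sgk1, Errfi1 and Cdkn1a) and the receptor genes Nr3c1 and Nr3c2 fell. At 24 h Fkbp5, Errfi1 and Cdkn1a rose and the same receptor genes fell, and at 72 h Cdkn1a rose and 6 fell. Sgk1, a kinase induced by glucocorticoids, rose from 67.1 to 185.8 CPM at 1 h (log2 1.47, edgeR adjusted p = 9.9e-05), and Nr3c2, the mineralocorticoid receptor, fell to 4.59 from 26.6 CPM at 72 h (log2 -2.53, edgeR adjusted p = 7.02e-09). Without 6 h replicate 1, 5 rose at 6 h and Per1 was not called (log2 0.47, edgeR adjusted p = 0.169), and without 24 h replicate 3 only Cdkn1a rose at 24 h. At 72 h 3 of this list rose and 5 fell with library size scaling.

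Of 11 clock genes, Arntl rose and Per2 fell already at 10 min, at means of 1.16 ± 0.223 CPM in sham and 9.94 ± 2.85 CPM at 10 min for Arntl and 41.0 ± 5.72 and 15.5 ± 4.71 CPM for Per2 (SD, n = 3). With library size scaling 2 clock genes rose at 10 min and 0 fell. At 6 h 4 rose (Arntl, Npas2, Per1 and Cry1) and 3 fell (Nr1d2, Dbp and Tef), and at 24 h 2 rose and 5 fell. The risers were 2 at 6 h without 6 h replicate 1 and 0 at 24 h without 24 h replicate 3, when those that fell numbered 3 and 5. At 72 h 3 rose (Arntl, Npas2 and Clock) and 8 fell, the same counts as with library size scaling. Tef, a clock output factor, fell by 3.06 at 72 h (253.2 to 30.3 CPM, edgeR adjusted p = 2.16e-10), and the repressor Nr1d2 by 2.27 (119.7 to 24.8 CPM, edgeR adjusted p = 4.66e-10). Klf9, which is itself a clock-linked gene, had 130.8 CPM in sham and 150.4 CPM at 10 min (edgeR adjusted p = 0.907), and Klf15 had 52.9 and 51.1 CPM. The part of the time of day in the levels of Klf9 and Klf15 was not tested.

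Of 9 TGF-beta pathway genes set beside Klf10 and Klf11, 0 passed the edgeR test at 1 h, with 1 at an unadjusted p below 0.05 and 1 called by DESeq2. At 6 h Tgfb2, Tgfbr1, Tgfbr2 and Smad7 rose and Tgfb3 fell. At 24 h 5 rose, or 3 without 24 h replicate 3, and at 72 h 7 rose, the genes of all 3 ligands among them, with 0 falling. The ligand Tgfb3 rose from 18.5 to 79.8 CPM at 72 h (log2 2.1, edgeR adjusted p = 1.66e-08), and the receptor Tgfbr2 rose from 65.6 CPM in sham to 140.4 CPM at 6 h (log2 1.10). Klf10 itself had risen at 6 h, 24 h and 72 h and Klf11 at 6 h. All 6 fibroblast markers rose at 72 h, and their part in the late counts was not tested. All 9 pathway genes rose at 72 h with library size scaling, where 9472 of the 16311 genes tested rose and 2382 fell. Of 5 genes known as controlled by Klf5, the growth factor gene Igf1 (9.19 to 79.6 CPM, log2 3.11) and the smooth muscle gene Tagln rose at 72 h. Ppara, a regulator of fatty acid use, fell by 1.52 (21.3 to 7.41 CPM). Tagln was covered by few reads, at 0.715, 0.813 and 0.16 CPM at 6 h and 0.561, 0.637 and 0.928 CPM at 24 h. At these times 6 smooth muscle and pericyte markers summed to means of 909.7 and 662.4 CPM. Why Tagln was so low was not tested, so its rise says little of smooth muscle. With library size scaling 4 of the 5 genes rose and 1 fell at 72 h.

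At 1 h, when Klf2 and Klf4 peaked, 0 of 8 genes of the flow pathway upstream of them and 0 of 8 endothelial genes known as controlled by them passed the edgeR test. The counts at an unadjusted p below 0.05 were 0 and 2, and DESeq2 called 0 of either list. Of all genes tested 16.3% rose at 6 h, and so did 6 of the 8 endothelial genes. They were the nitric oxide synthase gene Nos3 (log2 0.54), the anticoagulant receptor gene Thbd (1.03), S1pr1 (1.02), Edn1 (0.98), Ace (0.66) and Vcam1 (0.7). The angiopoietin receptor gene Tek fell. The list does not separate genes that Klf2 or Klf4 raise from genes they lower, and a response to either factor was not tested. Thbd stood at 317.4, 159.3 and 143.2 CPM and S1pr1 at 302.0, 176.7 and 207.1 CPM at 6 h, both highest in replicate 1, the library with the most neutrophil and atrial marker RNA. Without that library 4 of the 8 rose, with Thbd at 0.58 (edgeR adjusted p = 0.0088), and Nos3 (log2 0.35, adjusted p = 0.173) and Edn1 (log2 0.69, adjusted p = 0.106) were not called. At 72 h Edn1, Ace and Vcam1 rose and Nos3, Thbd, S1pr1 and Tek fell. The adhesion molecule Vcam1 rose from 18.8 to 56.8 CPM at 72 h (log2 1.60) and Tek fell by 0.87 (96.7 to 53.1 CPM). In the flow pathway Map2k5 and Mef2a fell at 6 h, Map2k5 without a call once 6 h replicate 1 was left out (log2 -0.35, adjusted p = 0.0531), and 3 genes rose and 4 fell at 72 h, when Mapk7, which encodes Erk5, rose from 15.0 to 37.0 CPM (log2 1.30) and Mef2d fell by 0.94 (146.1 to 76.2 CPM). With library size scaling the counts at 72 h were 4 rising and 1 falling in the flow pathway and 4 and 2 among the endothelial genes. Of the 6 endothelial markers 5 had also fallen at 72 h (median log2 -0.60, and -0.02 with library size scaling), and their part in these falls was not tested.

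Among 16 other family genes, Sp factors included, 8 were tested. Of these 4 rose at 6 h, 2 at 24 h and 4 at 72 h, when 3 fell. Library size scaling gave 5 that rose and 1 that fell at 72 h, and without 6 h replicate 1 the number at 6 h was 3. The housekeeping-type factor Sp3 rose from 37.9 to 61.4 CPM at 72 h (log2 0.70), and Klf16 from 6.90 to 13.7 CPM (log2 0.98). Of 10 corepressors and coactivators that the family binds, 2 rose and 4 fell at 72 h. With library size scaling 8 of these 10 rose and 0 fell, where 9472 of the 16311 genes tested rose and 2382 fell. Among them the histone deacetylase gene Hdac1 rose from 26.6 to 57.1 CPM (log2 1.10), and the acetyltransferase gene Kat2b fell by 0.63 (86.3 to 55.8 CPM). Of 4 ubiquitin ligases of the family, Fbxw7, which marks Klf5 and Klf2 for degradation, fell by 0.89 at 72 h (57.8 to 31.2 CPM), Smurf1 fell by 0.20, and Wwp1 fell by 0.38 at 24 h (62.6 to 48.1 CPM). Smurf2 rose at 6 h (log2 0.53, edgeR adjusted p = 0.0213) and at 24 h (log2 0.43, adjusted p = 0.0406). These calls of Smurf2 were lost without 6 h replicate 1 and without 24 h replicate 3, at adjusted p of 0.147 in both fits. Library size scaling gave 2 that rose and 0 that fell at 24 h, so that Wwp1 was not called there, and 3 that rose and 1 that fell at 72 h.

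The genes whose log2 CPM was most like that of a member were found by Pearson correlation over the 18 libraries among 11634 genes, a description of libraries that share their groups. For Klf2 they were Dusp1 (r = 0.929) and Rhob (0.918), and for Klf4 the same 2 genes, each at 0.925. Dusp1, an early-response phosphatase, had means of 75.3 CPM in sham, 166.7 at 10 min, 432.2 at 1 h, 183.7 at 6 h, 98.1 at 24 h and 52.1 at 72 h, the same order of group means as Klf2. For Klf6 they were Trib1 (0.952) and Cebpd (0.942), for Klf10 Angptl4 (0.904) and Axin1 (0.9), and for Klf11 Txnip (0.828) and Pdk4 (0.796). For Klf9 they were Agtpbp1 (0.988) and Atpaf1 (0.984), and for Klf15 Ptges2 (0.98) and Thrsp (0.978). Klf13 was most like Ahcyl1 (0.865) and Mbnl2 (0.863), Klf3 most like Zfp189 (0.852) and Setd2 (0.819), and Klf5, at its low counts, most like Polr2a (0.833) and Smg8 (0.832).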

How the data were processed

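Total RNA of left ventricle was sequenced in 18 libraries, 3 per group, at 18199172 to 25062351 counts each. The authors deposited raw read counts per gene and FPKM values; the submitters' processing notes name cutadapt 1.18, HISAT2 2.1.0, featureCounts and the mm10 build. The annotation and strand setting are not given in the sources used here, so overlapping and antisense genes could share reads. The counts were tested in R 4.3.3 with edgeR 4.0.16, which used TMM scaling, a filterByExpr filter that removed 14272 genes, robust quasi-likelihood fits over all 18 libraries with 1 mean per group, two-sided contrasts and Benjamini-Hochberg adjustment over 16311 genes. The biological coefficient of variation was 0.149. Alternatives used DESeq2 1.42.0, limma 3.58.1 on FPKM, other scalings and filters, the replicate number as a block, and fits without single libraries or without both that stood apart, the last chosen after seeing the data, as were the counts of gene lists without either of them. The deposited FPKM columns of 6 h replicates 2 and 3 fit each other's counts and not their own; group means are not affected. The test was checked on simulated data. Gene positions come from GENCODE M21, symbols matched 30489 of 30583 IDs, and promoters come from RefSeq. The members, lists and motifs were chosen with earlier results of these data known. The members are described in full; of each list the 2 genes with the smallest F test p are named, and for each member the 2 tested genes, averaging 50 counts or more, that correlate best with it.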

Additional observations from a re-analysis of the deposited data

Results flagged for a closer look

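In 12 cases the level of a member differed between successive times by the edgeR contrast between the later and the earlier time. In each of them the contrast with sham was also called at one time or both. These are the contrasts given above, and some lost their call under the alternatives given there. The same sham libraries serve every time, so these are differences between times and not between separately controlled effects of ligation. Klf3 passed the test from 6 h to 24 h (-0.28) without a call against sham at either time and is not counted here. From 10 min to 1 h the log2 level was higher by 1.15 for Klf2 and by 0.84 for Klf4. From 1 h to 6 h the difference was -1.04 for Klf2, -0.85 for Klf4 and 0.66 for Klf6. From 6 h to 24 h it was -0.82 for Klf4, -0.79 for Klf6 and -0.97 for Klf9. From 24 h to 72 h it was -0.77 for Klf2, -0.66 for Klf4, -1.07 for Klf9 and -1.76 for Klf15. Groups of 3 libraries were not tested for single outlying libraries.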

How the results depend on the processing

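Of 31 member results called in the 9 contrasts, 16 kept their call and direction under every alternative that gave a value and 15 lost the call under at least 1. The 16 kept included Klf9 at 24 h and 72 h, Klf15 at 72 h, Klf10 at 6 h, 24 h and 72 h, Klf4 at 1 h, and Klf5, Klf6 and Klf11 at 6 h. That of Klf5 is not free of selection, since it passed the low-count filter only through libraries after ligation, where it was higher. For Klf5 against sham 24 of 28 alternatives gave a value, the others being the filter of 10 counts in every library, both limma settings and only the 6 libraries compared. Of the 59 results not called, 21 were called under at least 1 alternative. Some results turned direction with library size scaling, limma on log2(FPKM + 1) and limma on log2(FPKM + 0.1), the values below being in this order. Those with a call in the main fit or under the setting were Klf13 at 72 h against sham (0.28, 0.25 and 0.28), Klf13 at 72 h against 24 h (0.30, 0.27 and 0.30) and Klf3 at 24 h against 6 h (0.02, 0.01 and 0.02). Values called in neither changed sign too, such as Klf6 at 72 h against 24 h (from -0.29 to 0.10, 0.11 and 0.12). These settings share the median shift of all genes given above; the cause was not tested. The number of members called at 10 min went from 0 to 2 with only the 6 libraries compared, which is a fit with fewer samples. For 24 h against 6 h it went from 4 to 2 with both limma settings and with only the 6 libraries compared. For 1 h against 10 min it went from 2 to 1 without the low-count filter. Leaving out 1 library gave 2 to 5 members called at 24 h against sham and 0 to 2 at 1 h against 10 min. The replicate block left 1 called at 1 h against 10 min, and 29 of the 31 calls held with it, the others being Klf2 at 1 h against 10 min and Klf3 at 24 h against 6 h. The replicate numbers were not taken to pair mice: over 45 pairs of libraries with the same number the mean correlation of deviations was 0.0156, 4 pairs were over 0.1, and 9 of 18 libraries correlated best with their own number. Over all genes, 12 were called at 10 min against sham, but 26 without the filter, 58 by DESeq2, 2 and 5 by the limma settings, 360 with only the 6 libraries compared, and 0 to 24 without 1 library. At 1 h the 48 called became 93 by DESeq2 and 190 with only the 6 libraries compared, and for 1 h against 10 min the 50 called became 127 and 244. For 24 h against 6 h the 4541 called became 6880 with library size scaling and 1024 with only the 6 libraries compared. Without both libraries that stood apart, the members called against sham were 0 at 10 min, 3 at 1 h, 5 at 6 h, 3 at 24 h and 8 at 72 h. Those at 1 h and 6 h all rose, at 24 h 2 rose and 1 fell, and at 72 h 3 rose and 5 fell. Of all genes in that fit, 99 rose and 9 fell at 1 h, and 2269 rose and 1652 fell at 6 h. At 24 h 3342 rose and 2574 fell, and at 72 h 5969 rose and 5556 fell. Beyond those given above, leaving out 1 library newly called Klf5 for 6 h against 1 h (adjusted p = 0.0344 without 24 h replicate 3, 0.0437 without 72 h replicate 3), Klf6 for 72 h against 24 h (0.0497 without 6 h replicate 1), Klf11 for 24 h against 6 h (0.0103 without 24 h replicate 3) and for 72 h against 24 h (0.0265 without 72 h replicate 3), Klf13 for 24 h against 6 h (0.048 without 1 h replicate 3, 0.0248 without 24 h replicate 1) and Klf15 for 24 h against 6 h (0.0143 without 24 h replicate 1), by edgeR. Depth limits Klf5, at 1 to 19 counts per library; the other 9 members had 150 to 5839.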
